A study of Mus musculus with 24 samples.

Results

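The genes described are the Fc receptors, which bind the constant part of antibodies, and the adaptors and kinases through which they signal, as measured in the terminal ileum of mice given early-life antibiotic. Members were chosen by name and function, with earlier results of these data known. Of 10 genes listed, 9 were among the 547 genes of the table, namely Fcgr1, Fcgr2b, Fcgr3, Fcgr4, Fcer1a, Fcer1g, Fcgrt, Tyrobp and Syk, and Lyn was not analysed here. The question of the study was how far 1 early course of the macrolide tylosin acts on the host compared with repeated courses. Expression was measured on the NanoString nCounter mouse immunology panel, which counts probe-bound RNA molecules without amplification, in ileum taken at week 7 of life. All mice were C57BL/6, and all groups share that strain, age and tissue. The 7 Control mice (4 male, 3 female) received no antibiotic. The 7 PAT1 mice (4 male, 3 female) received 1 pulse of tylosin through the nursing dam, and the 10 PAT3 mice (4 male, 6 female) received 3 pulses in all. Whole litters were assigned to a group and mice were housed by sex and group, so effects of litter or cage and of treatment cannot be told apart. The labels give other sizes of the PAT groups than a figure legend of the study, and the labels were used. They name no litter, so all tests treat the mice as independent.

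Receptors for IgG on macrophages, neutrophils and dendritic cells either activate the cell or restrain it. Fcgr1, Fcgr3 and Fcgr4 encode activating receptors whose surface expression and signalling need the common gamma chain, encoded by Fcer1g, which carries an immunoreceptor tyrosine-based activation motif (ITAM). Antibody-bound receptors are phosphorylated by Src-family kinases such as Lyn, and the kinase Syk then docks on the ITAM. Fcgr2b encodes the inhibitory receptor, which carries an inhibitory motif (ITIM) and recruits phosphatases. Fcer1a encodes the IgE-binding chain of the high-affinity IgE receptor of mast cells and basophils, and Tyrobp (DAP12) is a second ITAM adaptor, used by Trem and natural killer cell receptors. Fcgrt encodes the neonatal Fc receptor, which carries IgG across epithelia and protects it from degradation, paired with B2m, and is not coupled to an ITAM.

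Promoter sequence is shown for the receptor genes that are grouped together below, because these genes moved together between mice. In the RefSeq gene table, Fcgr2b, Fcgr4 and Fcgr3 neighbour each other on chromosome 1, with Fcer1g nearby. Sequences are from RefSeq on GRCm38.p6 and cover the 100 bases before the annotated transcript start, 5′ to 3′ on the gene's strand. Each was searched on both strands for GAGGAA, a core of the sites bound by the myeloid factor PU.1, whose reverse complement is TTCCTC, and capitals mark each match. The windows are chr3:96293970-96294069 on the minus strand for Fcgr1, chr1:171059404-171059503 on the minus strand for the first listed start of Fcgr3, and chr1:171018826-171018925 on the plus strand for Fcgr4. Those of Fcgr2b, chr1:170976072-170976171 on the minus strand, and of Fcer1g, chr1:171234350-171234449 on the minus strand, are shown for comparison.
Fcgr1: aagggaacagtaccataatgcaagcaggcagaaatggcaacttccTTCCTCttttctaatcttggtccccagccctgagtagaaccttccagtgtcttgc
Fcgr3: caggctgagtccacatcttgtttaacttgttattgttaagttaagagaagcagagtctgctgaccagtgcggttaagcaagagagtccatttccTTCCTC
Fcgr4: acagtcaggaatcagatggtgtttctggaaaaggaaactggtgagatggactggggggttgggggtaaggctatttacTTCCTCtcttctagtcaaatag
Fcgr2b: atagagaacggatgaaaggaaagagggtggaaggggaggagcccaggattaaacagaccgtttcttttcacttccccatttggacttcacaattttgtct
Fcer1g: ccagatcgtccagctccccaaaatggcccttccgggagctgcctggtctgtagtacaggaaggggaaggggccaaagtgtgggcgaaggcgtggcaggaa

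The match began 55 bases before the start in Fcgr1, 6 in Fcgr3 and 22 in Fcgr4, on the opposite strand each time, and none lay in the windows of Fcgr2b and Fcer1g. The 8 members with an entry had 10 promoters in the table, of which 5 held the letters, compared with 9.82% of all 32851 promoters of the same length. These were Fcgr1, Fcgr4, both overlapping windows of Fcgr3 and the second listed start of Syk. A match describes the letters only and is not evidence of binding. Tyrobp had no entry.

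Depth differed between samples. Recovered totals ran from 171671 to 782392 counts per sample (median 580162), and the shallowest were PAT1 replicate 1 and PAT3 replicate 7. Counting error at the median count of a group was 2.44% to 11.3% for 8 members and 27.7% to 40.8% for Fcer1a. These errors cover counting only. Pigr and Ccl25, which mark small intestinal epithelium, were detected in all groups at mean log2 levels of 13.10 to 15.52. In bulk tissue, fewer cells of a type and less RNA per cell cannot be told apart. Levels of different genes come from different probes and were not compared. The receptor domains of Fcgr2b and Fcgr3 are close in sequence, and whether each probe reads only its own transcript was not checked here.

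No member differed between groups beyond the adjusted threshold. By limma with Benjamini-Hochberg adjustment over all 547 genes, 0 of 9 members passed an adjusted p of 0.05 in the test among the 3 groups, against 34.6% of all genes. The count was 0 of 9 in PAT1 minus Control (18.5% of all genes called), 0 of 9 in PAT3 minus Control (31.8%) and 0 of 9 in PAT3 minus PAT1 (4.2%). At an unadjusted p under 0.05, limma gave 1 member in PAT1 (Fcgrt), 1 in PAT3 (Fcgr4), 1 among the 3 groups (Fcgrt) and 0 between the PAT groups, compared with 157, 239, 259 and 156 of all genes. With sex as a covariate, 0 members remained at that level in PAT3, where Fcgr4 had an unadjusted limma p of 0.0598. The methods' test of the study, analysis of variance per gene with Tukey's comparison, also called 0 members in these comparisons, and voom on recovered counts called 1 (Fcgrt) in PAT1 and 0 in the others. No member had its PAT1 samples wholly outside the Control range (0 of 9, against 6.22% of all genes) or its PAT3 samples (0 of 9, against 9.32%). The median log2 difference of the 9 members was -0.13 in PAT1 and -0.20 in PAT3, and that of all genes 0.01 and 0.03. Without regard to sign, the median difference was 0.25 in PAT1 and 0.20 in PAT3 for members, and 0.27 and 0.35 for all genes. The comparisons with PAT1 and with PAT3 share the 7 Control mice, so their values are given side by side and not as independent results. All levels below are log2 normalized counts, and all differences are log2.

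**Figure D1:**
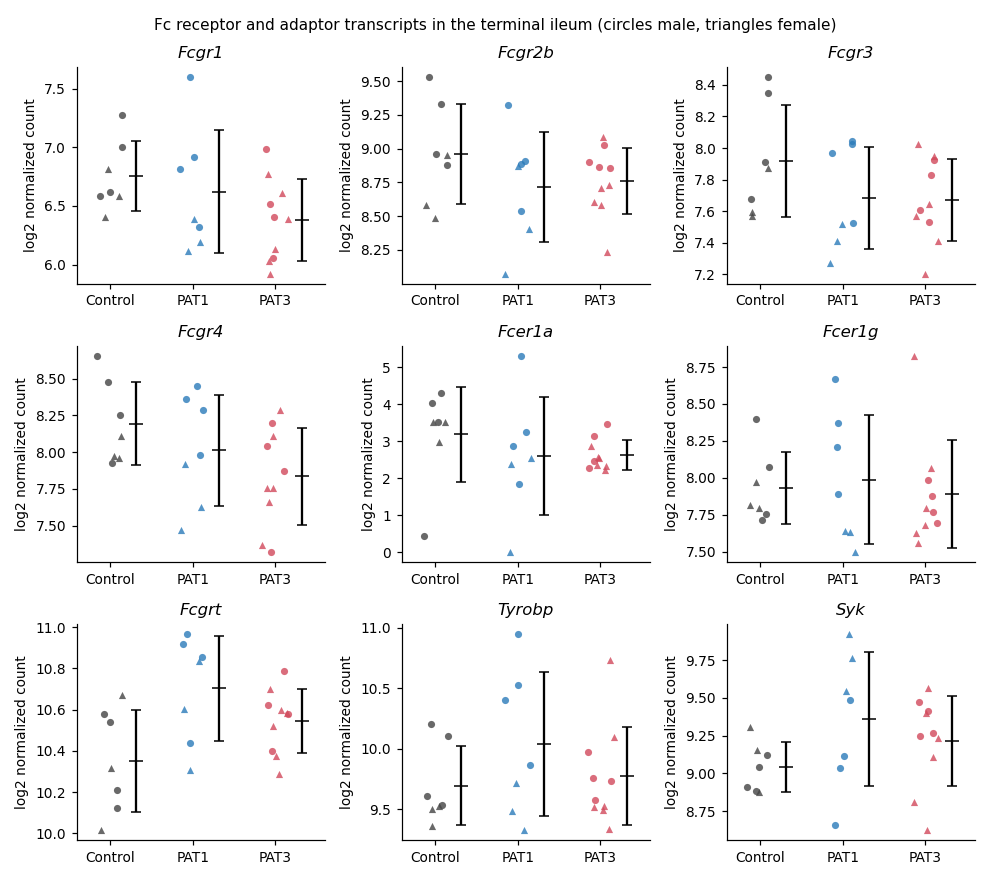
Log2 normalized count (vertical axis) of each of the 9 members in the Control (n = 7), PAT1 (n = 7) and PAT3 (n = 10) mice, with 1 point per mouse, circles for males and triangles for females, and the mean ± SD as a bar beside the points. The ranges of the groups overlap for every member, and vertical axes differ between panels and do not start at 0.

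The activating IgG receptors, like the inhibitory Fcgr2b described below, were lower by value in both PAT groups, and none of these differences passed the adjusted threshold. Fcgr4, the receptor for IgG2 classes and IgE, ranged from 7.93 to 8.66 (median 8.11) in Control, from 7.47 to 8.45 (median 7.98) in PAT1 and from 7.32 to 8.28 (median 7.81) in PAT3. The ranges overlapped, but 6 of 10 PAT3 mice and 3 of 7 PAT1 mice lay below the lowest Control. The difference was -0.36 in PAT3 (SE 0.17, 95% interval -0.70 to -0.01; limma adjusted p = 0.103) and -0.18 in PAT1 (SE 0.18, interval -0.55 to 0.19; adjusted p = 0.535).

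Fcgr1, the high-affinity receptor for monomeric IgG, ranged from 6.41 to 7.27 (median 6.62) in Control, from 6.11 to 7.60 (median 6.39) in PAT1 and from 5.92 to 6.98 (median 6.40) in PAT3. Here 5 of 10 PAT3 mice and 4 of 7 PAT1 mice lay below all Controls, while PAT1 replicate 1, the shallowest sample, lay above all of them. The difference was -0.37 in PAT3 (SE 0.19, interval -0.77 to 0.02; limma adjusted p = 0.139) and -0.13 in PAT1 (SE 0.21, interval -0.56 to 0.30; adjusted p = 0.714). Fcgr3, a low-affinity receptor for immune complexes, ranged from 7.57 to 8.45 (median 7.87) in Control, from 7.27 to 8.04 (median 7.52) in PAT1 and from 7.20 to 8.03 (median 7.62) in PAT3. Its difference was -0.25 in PAT3 (SE 0.16, adjusted p = 0.234) and -0.24 in PAT1 (SE 0.17, adjusted p = 0.383), and 3 PAT3 and 4 PAT1 mice fell below the Control range. Relative to Ptprc, the leukocyte tyrosine phosphatase, which was itself lower in PAT3 (log2 difference -0.46, SE 0.17, limma adjusted p = 0.0452), the differences of Fcgr1, Fcgr3 and Fcgr4 in PAT3 turned positive, at 0.09, 0.21 and 0.10.

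The inhibitory receptor Fcgr2b had levels of 8.49 to 9.53 (median 8.95) in Control, 8.07 to 9.32 (median 8.87) in PAT1 and 8.24 to 9.09 (median 8.80) in PAT3. The 3 ranges overlapped, with 1 PAT3 mouse and 2 PAT1 mice below the lowest Control. Control replicates 2 (9.33) and 4 (9.53) lay above every PAT1 and PAT3 mouse. The difference was -0.20 in PAT3 (SE 0.17, interval -0.55 to 0.15; limma adjusted p = 0.381) and -0.25 in PAT1 (SE 0.18, interval -0.62 to 0.13; adjusted p = 0.400), and relative to Ptprc it was 0.26 in PAT3. The mean of the 3 activating receptors minus Fcgr2b, taken within each mouse, had a Control mean of -1.34 ± 0.12 (SD, n = 7), a PAT1 mean of -1.28 ± 0.29 (SD, n = 7) and a PAT3 mean of -1.46 ± 0.24 (SD, n = 10). This log2 balance shifted by 0.06 in PAT1 and -0.13 in PAT3, and these shifts were not tested. Both were less than the SD of either PAT group, but that in PAT3 was about as large as the Control SD. In all, 4 of 7 PAT1 and 7 of 10 PAT3 mice stayed within the Control range.

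No difference of the ITAM adaptors from Control passed the threshold. Fcer1g ranged from 7.71 to 8.40 (median 7.82) in Control, from 7.50 to 8.67 (median 7.89) in PAT1 and from 7.56 to 8.83 (median 7.78) in PAT3. Its difference was 0.06 in PAT1 (SE 0.19, interval -0.34 to 0.45; limma adjusted p = 0.887) and -0.04 in PAT3 (SE 0.18, interval -0.41 to 0.32; adjusted p = 0.861), and the sign in PAT1 turned without the 2 shallowest samples (-0.06). Tyrobp ranged from 9.36 to 10.21 (median 9.53) in Control, from 9.32 to 10.95 (median 9.86) in PAT1 and from 9.34 to 10.73 (median 9.65) in PAT3, and 3 PAT1 mice lay above all Controls. Its difference was 0.35 in PAT1 (SE 0.24, interval -0.14 to 0.83; adjusted p = 0.351) and 0.08 in PAT3 (SE 0.22, interval -0.37 to 0.53; adjusted p = 0.788). In the males alone, Tyrobp differed by 0.57 in PAT1 and in the females by 0.05, and neither passed the test (adjusted p = 0.137 and 0.928). The 3 highest PAT1 values were those of the 3 shallowest PAT1 samples, all male, and the highest PAT3 value was that of the shallowest PAT3 sample.

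Syk, the kinase that docks on both adaptors, ranged from 8.88 to 9.31 (median 9.04) in Control, from 8.66 to 9.92 (median 9.49) in PAT1 and from 8.62 to 9.56 (median 9.26) in PAT3. Control values were the tightest, and 4 PAT1 and 4 PAT3 mice lay above them while 1 PAT1 and 2 PAT3 mice lay below. The difference was 0.32 in PAT1 (SE 0.18, interval -0.04 to 0.68; limma adjusted p = 0.233) and 0.17 in PAT3 (SE 0.16, interval -0.16 to 0.51; adjusted p = 0.431). Without the 2 shallowest samples, in which Syk was lowest of its group, the PAT1 difference was 0.44 and passed the threshold (adjusted p = 0.0323).

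Fcgrt, the neonatal Fc receptor, came closest to the threshold. Its level ranged from 10.01 to 10.67 (median 10.32) in Control, from 10.31 to 10.97 (median 10.84) in PAT1 and from 10.29 to 10.79 (median 10.58) in PAT3. The ranges overlapped, although 4 of 7 PAT1 mice and 2 of 10 PAT3 mice lay above every Control and none lay below. The difference was 0.35 in PAT1 (SE 0.13, interval 0.08 to 0.63; limma adjusted p = 0.0620), a fold of 1.28, and 0.19 in PAT3 (SE 0.12, interval -0.06 to 0.45; adjusted p = 0.234). Over 38 other settings the PAT1 difference stayed between 0.25 and 0.50 and passed the threshold in 9, among them centring of each sample on its median (0.50, adjusted p = 0.0413) and the fit without the 2 shallowest samples (0.40, adjusted p = 0.0311). Its partner B2m, the light chain that also pairs with class I molecules, differed by 0.18 in PAT1 (adjusted p = 0.535) and -0.32 in PAT3 (adjusted p = 0.136). Of 5 antibody-transport genes listed, B2m and 2 others were in the table. Pigr, the epithelial receptor for polymeric IgA, was lower in PAT1 (log2 difference -1.32, SE 0.31, adjusted p = 0.00321) and PAT3 (-0.90, SE 0.28, adjusted p = 0.0166). Its PAT1 call was lost in females only. Its PAT3 call was lost after quantile normalization, relative to Ptprc, by the methods' test, in males only and in females only. Fcamr, a receptor for IgA and IgM, was higher in PAT1 (1.22, SE 0.35, adjusted p = 0.0150) and differed by 0.21 in PAT3 (adjusted p = 0.638). Its median counts were low, at 14 in Control, 17 in PAT1 and 16.5 in PAT3. The PAT1 call of Fcamr was lost by the methods' test and in females only.

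Fcer1a was too sparse to place. The median mouse held 13 counts in Control, 6 counts in PAT1 and 6.5 counts in PAT3, and values ranged from 0.43 to 4.30 (median 3.53), from 0 to 5.31 (median 2.53) and from 2.21 to 3.45 (median 2.50). The value of 0.43 is a count of 1 in Control replicate 1 and that of 0 a count of 0 in PAT1 replicate 5, so the order of values this low is not reliable. The difference was -0.59 in PAT1 (SE 0.56, interval -1.74 to 0.56; limma adjusted p = 0.514) and -0.57 in PAT3 (SE 0.51, interval -1.62 to 0.49; adjusted p = 0.418), and differences within these intervals were not detectable at this depth. Of 13 listed mast cell and basophil markers, 3 were in the table and none was a defining one, and of these Kit was higher in PAT3 (0.68, SE 0.26, adjusted p = 0.0447), a call lost on leaving out any 1 of 15 mice.

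**Figure D2:**
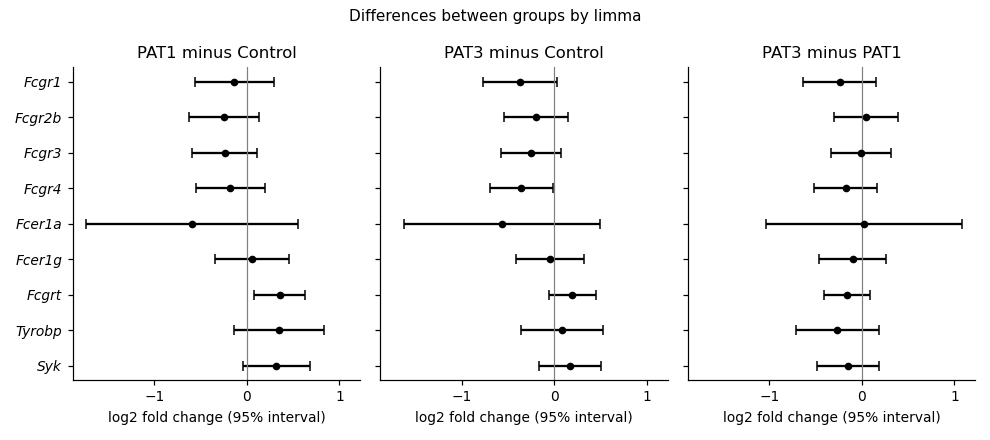
Log2 fold change of the 9 members (points) with its 95% interval (bars) for PAT1 and PAT3, each against Control, and for PAT3 against PAT1, from a single limma fit over 24 mice. The interval excludes 0 for Fcgrt in PAT1 and Fcgr4 in PAT3 before adjustment over genes and without sex in the fit, and for no other member.

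No member passed the threshold between the PAT groups. The PAT3 minus PAT1 difference ran from -0.26 for Tyrobp to 0.04 for Fcgr2b, and 7 of 9 members were lower in PAT3 by value. The smallest limma adjusted p was 0.422, for Fcgrt, whose difference was -0.16 (SE 0.12, interval -0.41 to 0.09). For Fcgr3 the interval ran from -0.34 to 0.31 and for Fcgr1 from -0.64 to 0.16.

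Differences within each mouse are free of the size factor used to scale that mouse. Fcgr4 minus Fcer1g, a receptor against its own signalling chain, had a Control mean of 0.26 ± 0.15 (SD, n = 7), a PAT1 mean of 0.02 ± 0.23 (SD, n = 7) and a PAT3 mean of -0.05 ± 0.31 (SD, n = 10). There were 5 of 7 PAT1 and 7 of 10 PAT3 mice below the Control range. For the other receptors minus Fcer1g fewer mice were below it, with 3 of 7 PAT1 and 6 of 10 PAT3 mice for Fcgr1, 4 of 7 and 4 of 10 for Fcgr3, and 4 of 7 and 2 of 10 for Fcgr2b. Fcgr4 minus Tyrobp, chosen after its values were seen, ran from -1.63 to -1.36 in Control, from -2.66 to -1.57 in PAT1 and from -2.62 to -1.68 in PAT3. All 10 PAT3 mice and 6 of 7 PAT1 mice lay below the lowest Control. It was the single pair of 36 member pairs without overlap between PAT3 and Control, whereas 8.17% of all pairs of genes showed none. Between PAT1 and Control 0 of 36 member pairs were without overlap, against 5.56% of all pairs. Tyrobp itself, paired with each of the other 546 genes, was without overlap in 34 pairs for PAT3 and 25 for PAT1. The share among member pairs was thus below that of all pairs, and no test is given for the pair named.

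Across mice, the members fell into a group that rose and fell together and genes apart from it. With the group means removed, each of the 36 pairs was correlated over 24 mice (100000 permutations within groups, two-sided, with Benjamini-Hochberg adjustment over the 36). All 15 pairs among Fcgr1, Fcgr2b, Fcgr3, Fcgr4, Fcer1g and Tyrobp passed, with r from 0.60 to 0.96 (permutation test, largest adjusted p = 0.00648). Fcer1g and Tyrobp, the ITAM adaptors, gave the highest value, with Pearson r = 0.96 (permutation p = 1e-05, the smallest possible, adjusted p = 9e-05) and Spearman rho = 0.88 (permutation p = 1e-05, adjusted p = 0.000144). It was 0.93 without the 2 mice farthest from the median, which were the 2 shallowest samples, and 0.84 in Control, 0.99 in PAT1 and 0.97 in PAT3. Among the activating receptors, Fcgr1 and Fcgr4 gave r = 0.84 (permutation p = 2e-05, adjusted p = 0.00012) and rho = 0.87 (permutation p = 1e-05, adjusted p = 0.000144), with r = 0.90 without the 2 farthest mice and 0.78 to 0.91 within groups. Fcgr3 and Fcgr4, neighbouring genes, gave r = 0.83 (permutation p = 1e-05, adjusted p = 9e-05) and rho = 0.78 (permutation p = 3e-05, adjusted p = 0.00018), with r = 0.80 without the 2 farthest and 0.73 to 0.97 within groups. The inhibitory Fcgr2b followed the activating Fcgr3 (r = 0.78, permutation p = 0.0001, adjusted p = 0.0003). For this pair rho was 0.79 (permutation p = 7e-05, adjusted p = 0.00028), with r = 0.75 without the 2 farthest and 0.62 to 0.94 within groups. With Fcgr4, whose window lies between theirs on chromosome 1, Fcgr2b gave the lowest r of the 15 pairs, 0.60 (permutation p = 0.0036, adjusted p = 0.00648). There rho was 0.64 (permutation p = 0.00235, adjusted p = 0.0047), with r = 0.47 without the 2 farthest and 0.45 to 0.88 within groups.

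Syk ran the opposite way, with r from -0.81 to -0.52 against these 6 genes (permutation test, largest adjusted p = 0.0265). Against Fcer1g it gave r = -0.81 (permutation p = 0.0001, adjusted p = 0.0003) and rho = -0.74 (permutation p = 0.00058, adjusted p = 0.00139), and against Tyrobp r = -0.79 (permutation p = 0.0002, adjusted p = 0.00048) and rho = -0.71 (permutation p = 0.00083, adjusted p = 0.00187). Without the 2 farthest mice, r was -0.65 and -0.61. Within groups the values differed, at -0.96 and -0.93 in PAT1 and -0.85 and -0.82 in PAT3 but 0.06 and -0.03 in Control. The difference between groups in r was not tested. No pair with Fcgrt passed the adjustment, with r from -0.38 to 0.10 over its 8 pairs (permutation test, adjusted p from 0.149 to 0.679). Fcer1a gave r from 0.16 to 0.50 with the 6 genes above, and 1 of these pairs passed, with Fcer1g (r = 0.47, permutation p = 0.0276, adjusted p = 0.0452; rho = 0.42, permutation p = 0.0561, adjusted p = 0.0841), which fell to r = 0.23 without the 2 farthest mice.

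**Figure D3:**
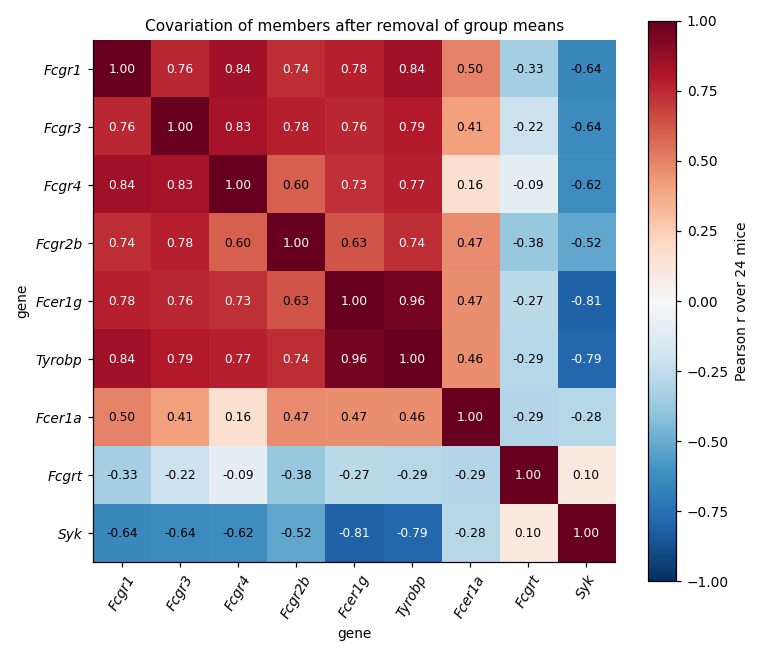
Pearson r between each pair of the 9 members (rows and columns) over 24 mice after the mean of each group was removed, coloured from blue at -1 to red at 1. The IgG receptors, Fcer1g and Tyrobp form a red block, Syk is negative to all of them, and Fcgrt is near 0 to weakly negative.

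The same genes moved with the depth of the sample. Against the log2 total count, with group means removed, Syk gave r = 0.83 (permutation p = 7e-05, adjusted p = 0.00063 over 9 members; rho = 0.69, permutation p = 0.00162, adjusted p = 0.0146). Fcer1g gave r = -0.77 (permutation p = 0.00067, adjusted p = 0.00201; rho = -0.57, permutation p = 0.0159, adjusted p = 0.0272) and Tyrobp r = -0.76 (permutation p = 0.00059, adjusted p = 0.00201; rho = -0.58, permutation p = 0.0103, adjusted p = 0.0272). Without the 2 mice farthest from the median, again the 2 shallowest, r was 0.67 for Syk, -0.51 for Fcer1g and -0.52 for Tyrobp. Within Control the r was 0.46 for Syk, -0.03 for Fcer1g and -0.18 for Tyrobp, while within PAT1 it was 0.96, -0.92 and -0.88. Fcgrt gave no relation past the threshold (r = 0.17, permutation p = 0.496, adjusted p = 0.496; rho = 0.14, permutation p = 0.547, adjusted p = 0.547). Of the IgG receptors, Fcgr1 (r = -0.66, permutation adjusted p = 0.00742), Fcgr4 (-0.54, adjusted p = 0.0234) and Fcgr3 (-0.49, adjusted p = 0.0234) also passed. Without the 2 farthest mice their r was -0.46, -0.55 and -0.44. Fcgr2b (-0.37, adjusted p = 0.156) and Fcer1a (-0.31, adjusted p = 0.29) did not pass. Dividing by a size factor removes a common scale but leaves these relations. The part of depth in the covariation of Syk, the adaptors and the IgG receptors was not tested.

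**Figure D4:**
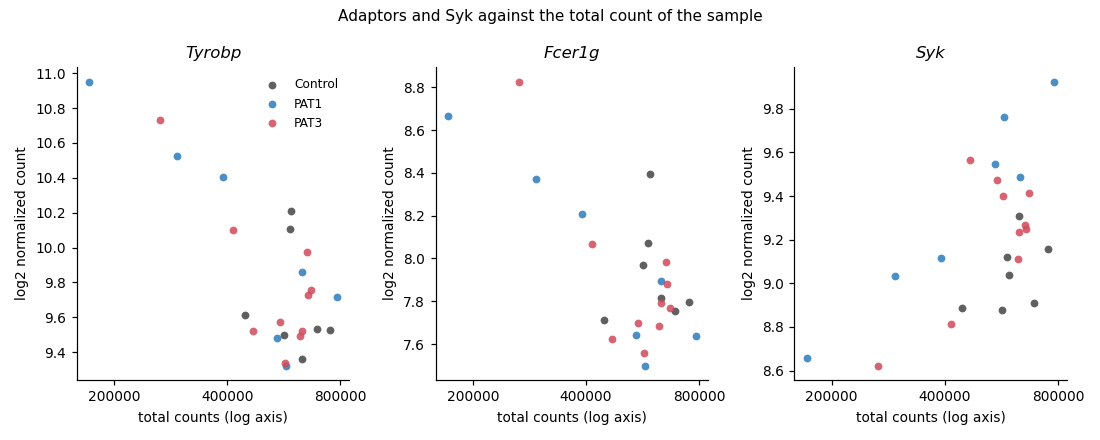
Log2 normalized count (vertical axis) of Tyrobp, Fcer1g and Syk against the total count of the sample (horizontal log axis) in 24 mice coloured by group. Tyrobp and Fcer1g are highest and Syk lowest in the 2 shallowest samples, PAT1 replicate 1 with 171671 counts and PAT3 replicate 7 with 265500, and vertical axes do not start at 0.

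The genes most like each member were named by the highest Pearson r over the 24 mice after group means were removed, as a description with no test. Subunits of complement C1q, made in tissue chiefly by macrophages, were the closest genes to Fcgr3, Fcgr4 and both adaptors. C1qb was the closest gene to Fcgr3 (r = 0.94) and Fcgr4 (0.80) and second for Fcgr2b (0.82) and Tyrobp (0.85), and C1qa was the closest to Fcer1g (0.89) and Tyrobp (0.88). Fcgr1 was closest to the chemokine Ccl8 (0.79) and to Tnfrsf17 (0.78), Fcgr2b to Il10ra (0.83), Fcgr4 also to the inhibitory receptor Lair1 (0.78), Fcgr3 also to Ifitm1 (0.82) and Fcer1g also to Mif (0.83). Syk stood with other genes, Tnfrsf11a (0.87) and the transcription factor Nfatc3 (0.86), as did Fcgrt, with Bid (0.77) and Casp1 (0.77). For Fcer1a no gene passed 0.58, reached by Rag1, with Tnfrsf1b at 0.57. Without removal of group means the closest gene changed to C1qb for Fcgr1 and Fcgr2b, Il10ra for Tyrobp, Il17ra for Syk and Tnfrsf1b for Fcer1a. All these pairs share the libraries and their depth.

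Sex was compared in the same mice with treatment in the fit. By limma, 0 of 9 members were called for female minus male, as 0.366% of all genes were. At an unadjusted p under 0.05 there were 5 of 9 members, all lower in females, and 64 of all genes. These were Fcgr2b (-0.39, SE 0.12, adjusted p = 0.171), Fcgr1 (-0.35, SE 0.15, adjusted p = 0.348), Fcgr3 (-0.30, SE 0.12, adjusted p = 0.326), Fcgr4 (-0.28, SE 0.13, adjusted p = 0.390) and Tyrobp (-0.38, SE 0.17, adjusted p = 0.390). Fcgr2b averaged 9.18 ± 0.31 (SD, n = 4) in Control males and 8.68 ± 0.25 (SD, n = 3) in Control females, 8.92 ± 0.32 (n = 4) and 8.45 ± 0.40 (n = 3) in PAT1, and 8.91 ± 0.08 (n = 4) and 8.66 ± 0.27 (n = 6) in PAT3. The female mean of Fcgr2b was the lower one in each group. That of Tyrobp was not lower in PAT3, with 9.76 ± 0.17 (SD, n = 4) in males and 9.78 ± 0.53 (SD, n = 6) in females. The shallowest PAT1 samples were male, and the part of depth in the sex differences was not tested. Whether treatment acted differently in the sexes was asked by an interaction F-test, in which 0 of 9 members were called, against 0.183% of all genes. At an unadjusted p under 0.05 there was 1 member and 100 of all genes, and the smallest adjusted p of a member was 0.187, for Syk.

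The wider ITAM and ITIM pathway was read against the calls over all genes, 18.5% in PAT1 and 31.8% in PAT3. Of 54 listed receptors, kinases, phosphatases and adaptors, 32 were in the table. In PAT1, 1 was higher and 1 lower, with a median difference of 0.12 over the 32. Ptpn6, the phosphatase that inhibitory receptors recruit, was higher (0.49, SE 0.14, limma adjusted p = 0.0120), and the phosphatase Ptpn22, which acts on Src-family kinases, was lower (-0.72, SE 0.19, adjusted p = 0.00746). Both PAT1 calls were lost relative to Ptprc and in females only. That of Ptpn6 was also lost in males only and with the macrophage gene list as covariate. In PAT3, 1 was higher and 5 lower, with a median of 0.02. The kinase Prkcd was higher (0.53, SE 0.20, adjusted p = 0.0467) and Ptpn22 lower again (-0.63, SE 0.17, adjusted p = 0.00664). The other 4 lower genes belong to lymphocyte receptors, namely the T cell kinases Lck (-1.09, SE 0.16, adjusted p = 1.46e-05) and Zap70 (-0.77, SE 0.20, adjusted p = 0.00446), the natural killer receptor Klrk1 (-0.50, SE 0.18, adjusted p = 0.0376) and the B cell receptor chain Cd79b (-1.26, SE 0.44, adjusted p = 0.0321). Lck (-0.71, adjusted p = 0.0401) and Cd79b (-1.57, adjusted p = 0.0401) were also lower in PAT3 than in PAT1, but both calls were lost on leaving out any 1 of 12 mice (PAT1 replicates 1, 2, 4 and 7 and PAT3 replicates 1 to 6, 8 and 9). Of the PAT3 calls against Control, those of Prkcd, Klrk1 and Cd79b were lost on leaving out 1 mouse in 13, 9 and 5 of 24 cases (largest limma adjusted p = 0.107, 0.0908 and 0.0764). That of Ptprc was lost in 14 (0.0834), whereas Lck, Zap70 and Ptpn22 passed in all 24. Under the 14 other settings, Lck kept its PAT3 call in all. Zap70 lost it after quantile normalization, relative to Ptprc and in females only, and Ptpn22 relative to Ptprc and in males only. The calls of Prkcd, Klrk1 and Cd79b were lost in 5, 7 and 5 of these 14. Beside these pathway genes, 9 of 10 T cell markers in the table and 5 of 9 natural killer cell markers were lower in PAT3, and 3 and 2 in PAT1. The summed log2 level of the T cell markers ran from 9.83 to 10.12 in Control, 9.09 to 9.96 in PAT1 and 8.48 to 9.40 in PAT3. Their part in the lymphocyte kinases was not tested.

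Macrophages and monocytes carry most of these IgG receptors. Of 16 listed genes of these cells, 11 were in the table, with 0 higher and 2 lower in both PAT groups, while 18.5% of all genes were called in PAT1 and 31.8% in PAT3. The defining Csf1r, the receptor for colony-stimulating factor, differed by -0.26 in PAT1 (SE 0.14, limma adjusted p = 0.210) and -0.12 in PAT3 (SE 0.13, adjusted p = 0.469), and Emr1 (F4/80) by -0.17 (adjusted p = 0.387) and -0.05 (adjusted p = 0.780). The lower genes were the integrin Itgam (-0.92, SE 0.19, adjusted p = 0.000865 in PAT1; -0.68, SE 0.17, adjusted p = 0.00353 in PAT3) and the scavenger receptor Msr1 (-0.61, SE 0.15, adjusted p = 0.00516; -0.46, SE 0.14, adjusted p = 0.0155), whose PAT3 call was lost without Control replicate 2 (adjusted p = 0.0518) and whose sign turned relative to Ptprc. Relative to Ptprc, the calls of both genes were lost in both PAT groups. The Itgam call was also lost in females only in PAT1 and in males only in PAT3. The Msr1 calls were lost in each sex alone. They were also lost with this list as covariate in PAT1, and after centring or quantile normalization in PAT3. The summed log2 level of the list ran from 11.70 to 12.27 in Control, 11.48 to 11.96 in PAT1 and 11.45 to 12.08 in PAT3. A fit with the mean of this list as a covariate was an alternative chosen after the data were seen. In it the PAT1 differences of Fcgr1, Fcgr2b, Fcgr3 and Fcgr4 turned positive, at 0.29, 0.14, 0.15 and 0.14. Those of Fcer1g (0.48, limma adjusted p = 0.0417) and Tyrobp (0.87, adjusted p = 0.00301) passed the threshold. The list holds C1qa and C1qb, the closest genes to several members, and Itgam and Msr1, which were lower in PAT1. This covariate is therefore not independent of the members or of treatment. Of the neutrophil and eosinophil markers, 1 of 7 was lower in PAT3 and 0 in PAT1, with summed levels of 6.33 to 7.21 in Control, 6.25 to 7.40 in PAT1 and 5.85 to 7.13 in PAT3. The lower gene was S100a9 (-0.96, SE 0.25, limma adjusted p = 0.00431), with median counts of 20 in Control and 12.5 in PAT3. The defining S100a8 (-0.75, adjusted p = 0.0504) and Csf3r (-0.59, adjusted p = 0.0554) came close to the threshold in PAT3. There Camp (0.81), Ccr3 (0.36) and Cxcr2 (0.04) were higher by value, and none of them passed. Of the dendritic cell markers, 1 of 6 was lower in each PAT group (Irf8 by -0.52 in PAT1, adjusted p = 0.00489, and by -0.53 in PAT3, adjusted p = 0.00154) and Cd83 was higher in PAT1 (0.62, adjusted p = 0.00624). Both Irf8 calls were lost after centring on the median, relative to Ptprc and in males only. In females only, the PAT1 calls of Irf8 and Cd83 were lost. Of the B cell markers, 0 of 12 were called in PAT1 and 1 was lower in PAT3. Of the 10 epithelial markers, PAT1 had 3 higher and 2 lower, while PAT3 had 2 of each. The defining epithelial markers went opposite ways, with Pigr lower in both PAT groups and Ccl25 higher. Ccl25 differed by 1.13 in PAT1 (SE 0.20, limma adjusted p = 0.000343) and 0.81 in PAT3 (SE 0.18, adjusted p = 0.00154). Of the endothelial and stromal markers, 0 of 4 were called in PAT1 and 1 was higher in PAT3. The part of these cells in the members was not tested.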

How the data were processed

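Terminal ileum RNA of 24 mice was hybridized to a NanoString nCounter panel. The authors normalized the counts with DESeq2, which divides each sample by a size factor, and deposited log2 values of 547 genes. Converted from log2, the values of a sample were whole multiples of 1 step (100% whole within 0.01 counts), and the counts recovered so gave totals and counting errors. The table names no genome build, and whether background was subtracted is not given in the sources used here. Groups and sex came from the labels.

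The deposited log2 values were fitted with limma (version 3.58.1, lmFit and eBayes, R 4.3.3) over all 24 samples without covariates, pseudocount or filter, and p-values were adjusted by Benjamini-Hochberg over all genes within a contrast. Sex was tested with treatment as a covariate, and its interaction with treatment over 6 means. Intervals are at 95%. Correlations used Python 3.11.15, numpy 2.4.6 and scipy 1.17.1, with 100000 permutations within groups. The fit was tested on simulated data.

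Members, gene lists and tests were chosen with earlier results of these data known. Every member is named, with B2m and Ptprc. From the pathway list the called genes are named, from marker lists the defining markers and called genes, and for each member the 2 genes with the most similar pattern. Marker genes other than the defining ones, Pigr and Fcamr were named after their values were seen. Alternatives covered scaling, low values, the test, weights, covariates, sex and leaving out each sample in turn.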

Additional observations from a re-analysis of the deposited data

Results flagged for a closer look

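In each of 27 combinations of a member and a group, the highest and the lowest sample were set against the rest, and 2 stood far from the others. Chance does so in about 1 in 20 groups. Fcer1a in Control replicate 1 had a log2 value of 0.43, a count of 1, below the other 6 Control mice. Fcer1g in PAT3 replicate 7 had 8.83, above the other 9 PAT3 mice, and this sample was the shallowest of its group, with 265500 counts.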

How the results depend on the processing

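Of 38 alternatives to each treatment comparison, 36 were planned and 2 were chosen after the data were seen. The number of members called in PAT1 minus Control was 1 after centring on the median, with the low-value filter and with voom on recovered counts (Fcgrt each time) and with the size factor as covariate (Syk). It was 2 with sample weights and without the 2 shallowest samples (Fcgrt and Syk), and 2 with the macrophage list as covariate (Fcer1g and Tyrobp). In PAT3 minus Control it was 2 relative to Ptprc (Fcgrt and Syk), 4 with sample weights (Fcgr1, Fcgr4, Fcgrt and Syk) and 1 with the size factor (Fcgr4). Among the 3 groups it was 1 after centring (Fcgrt), 2 with sample weights and without the 2 shallowest (Fcgrt and Syk), 1 with the size factor (Syk) and 1 with the macrophage list (Tyrobp). Leaving out 1 sample gave 0 to 1 in PAT1, with Fcgrt called without Control replicate 3 or 7 or PAT1 replicate 1 or 7, 0 in PAT3, and 0 to 1 among the groups (Fcgrt, without PAT1 replicate 7). No member was called in PAT3 minus PAT1, for sex or for its interaction with treatment under any alternative run. Over all genes the calls ran from 37 (females only) to 309 (sample weights) among the groups, from 23 to 136 in PAT1 and from 57 to 287 in PAT3 under the same alternatives, and from 0 to 129 (males only) between the PAT groups. There 0 genes were called by the methods' test, with the size factor, in females only and without any 1 of 12 mice. They ran from 0 to 7 for sex and from 0 to 4 for the interaction.

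Of the member differences under alternatives, 931 kept their sign and side of the threshold, 21 came to pass it and 71 changed sign. In PAT1 minus Control, Fcgr1 was 0.011 after centring, 0.016 after quantile normalization, 0.043 in males only and 0.29 with the macrophage list. With that list Fcgr2b was 0.14, Fcgr3 0.15, Fcgr4 0.14, Fcer1a 0.11 and Syk -0.0067. Fcer1a was 0.25 in males only. Fcer1g was -0.15 with the size factor, -0.27 in females only and -0.056 without the 2 shallowest. In PAT3 minus Control and relative to Ptprc, Fcgr1 was 0.087, Fcgr2b 0.26, Fcgr3 0.21, Fcgr4 0.10 and Fcer1g 0.42. Fcer1g was also 0.15 after centring, 0.0066 after quantile normalization, 0.064 in females only and 0.18 with the macrophage list. Tyrobp was -0.064 after quantile normalization, -0.11 in males only and -0.025 without the 2 shallowest. In PAT3 minus PAT1 and relative to Ptprc, Fcgr1 was 0.13, Fcgr3 0.36, Fcgr4 0.20, Fcer1g 0.27, Fcgrt 0.22, Tyrobp 0.11 and Syk 0.23. In females only Fcgr1 was 0.076, Fcgr3 0.23, Fcgr4 0.15, Fcer1g 0.33 and Tyrobp 0.28. In males only Fcgr2b was -0.0021, Fcer1a -0.49 and Syk 0.28. With the macrophage list Fcgr2b was -0.14, Fcer1a -0.31 and Syk 0.0089. Fcgr3 was also 0.035 after centring, 0.0042 with voom, 0.0069 with sample weights, 0.040 with sex as covariate, 0.061 with the size factor and 0.0054 without the 2 shallowest. Fcer1a was -0.000361 after quantile normalization and -0.12 with a pseudocount of 8, and Fcer1g 0.065 with the size factor. Leaving out 1 sample changed the sign of Fcer1g in PAT1 (-0.056 to 0.14), of Fcer1g (-0.15 to 0.034) and Tyrobp (-0.025 to 0.17) in PAT3, and in PAT3 minus PAT1 of Fcer1a (-0.41 to 0.48), Fcer1g (-0.20 to 0.013), Fcgr2b (-0.063 to 0.14) and Fcgr3 (-0.080 to 0.049). The causes were not tested.

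Centring on the median shifts all differences by 0.14 in PAT1 and 0.19 in PAT3, since the median log2 value fell by 0.14 and 0.19. Replicate numbers follow sample order and pair no mice. No paired analysis was possible because the labels carry no shared numbers. The p-values measure the spread between these mice. Group medians of 13 counts or fewer limited Fcer1a, and the number of mice limited differences under about the size of the intervals given. Without removal of group means, the closest gene stayed for Fcgr3, Fcgr4, Fcer1g and Fcgrt and changed for the other 5 members.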
